A study of Mus musculus with 6 samples.

Results

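The 58 genes described here are the named genes of mouse chromosome 10 that surround Lyz2, the lysozyme gene in which Cre recombinase is inserted in the knockout animals. They were listed by their position, and all 58 were found among the 54532 rows of the deposited count table. On build mm10 they lie between positions 108497650 and 122047315 of chromosome 10, a stretch of 13.5 Mb. The midpoint of Lyz2 lies 8.78 Mb from the low end and 4.77 Mb from the high end of that stretch. The question asked was whether neighbouring genes shifted together by position, as a stretch of linked DNA travelling with the Cre insertion could make them do.

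Epididymal fat (eWAT, the white fat pad beside the epididymis) was profiled by RNA sequencing in mice kept on a high-fat diet for 16 weeks. The knockout group had 3 libraries, of genotype PD-1fl/fl Lyz2-Cre, in which the receptor PD-1 (gene Pdcd1) is deleted in myeloid cells. The control group had 3 libraries from PD-1fl/fl littermates, so both groups carried the floxed Pdcd1 allele, on chromosome 1, and the Lyz2-Cre insertion set them apart. The sources used here give no age, strain background or number of backcrosses, nor do they say whether each library came from 1 animal, and replicates were numbered in the order of the sample record. The p-values therefore measure the spread between these libraries.

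Lyz2 encodes M lysozyme, a secreted and lysosomal enzyme that cuts bacterial cell walls and is made in large amounts by macrophages, monocytes and neutrophils. In Lyz2-Cre mice the recombinase is placed in the gene itself, so that it is made in those cells, and the inserted copy no longer makes lysozyme. DNA close to an inserted allele is usually inherited with it. Littermates that carry the insertion can therefore differ from those without it in the strain of origin of the genes around it. Counts per gene do not tell the 2 parental copies apart, so strain of origin was not tested. In whole fat, fewer cells of a type and less RNA per cell cannot be told apart.

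Promoter sequence is shown for the Lyz2 gene and its neighbour Lyz1, since these near-copies sit side by side at the insertion site, and for Syt1 and Tph2, the members with the largest negative and positive fold changes. The bases are those before the annotated start of each gene, read 5′ to 3′ on the gene's strand, from RefSeq, build GRCm38.p6 (the same assembly as mm10). All 4 genes lie on the minus strand. Capitals mark AGGAAGT or its other strand ACTTCCT (an ETS-type core), CCAAT or ATTGG, and TATAAA or TTTATA, none of which overlap one another here. Glipr1 is named only.
Lyz2, chr10:117282322-117282522: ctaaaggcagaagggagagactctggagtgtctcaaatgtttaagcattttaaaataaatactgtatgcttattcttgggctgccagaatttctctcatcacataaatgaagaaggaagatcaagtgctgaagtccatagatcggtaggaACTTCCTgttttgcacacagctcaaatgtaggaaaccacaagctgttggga
Lyz1, chr10:117292869-117293118: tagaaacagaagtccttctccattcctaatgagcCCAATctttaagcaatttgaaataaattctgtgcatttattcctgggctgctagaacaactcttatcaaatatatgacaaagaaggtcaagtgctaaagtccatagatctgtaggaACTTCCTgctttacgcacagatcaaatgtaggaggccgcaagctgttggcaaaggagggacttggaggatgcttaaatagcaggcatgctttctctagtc
Syt1, chr10:109010983-109011225: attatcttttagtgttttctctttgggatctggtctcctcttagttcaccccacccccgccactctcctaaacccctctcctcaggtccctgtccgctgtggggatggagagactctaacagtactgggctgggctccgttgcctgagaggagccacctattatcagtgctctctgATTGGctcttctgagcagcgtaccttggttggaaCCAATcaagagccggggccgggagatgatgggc
Tph2, chr10:115185023-115185272: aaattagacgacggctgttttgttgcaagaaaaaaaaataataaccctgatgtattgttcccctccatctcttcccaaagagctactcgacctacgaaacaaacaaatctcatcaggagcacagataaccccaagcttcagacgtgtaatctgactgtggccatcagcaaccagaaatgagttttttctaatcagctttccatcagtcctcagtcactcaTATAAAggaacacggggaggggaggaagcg
The lysozyme pair shared the ACTTCCT stretch and much of the sequence around it. Over the 250 bases before each start, 200 of 248 aligned positions were identical, 79.4% when gaps are counted. The ETS-type core was found in 3 of the 49 member promoters in the RefSeq table, those of Lyz2, Lyz1 and Krr1, and in 7.69% of 32851 promoters of all genes, searched over 250 bases on both strands. The CCAAT motif was in 11 of the 49 and in 33.8% of all promoters, and the TATAAA motif in 6 of the 49 and in 12.4% of all. A match is a description of the letters and not a binding site.

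Library totals were 22813206 to 25441746 counts in knockouts and 20108185 to 27225533 counts in controls. Control replicate 2 stood apart from the others. Albumin (Alb) took 8.27% of its counts, against 0.000483% to 0.0817% in knockouts and 0.000724% and 0.436% in the other controls. The adipocyte marker list had a mean log2(CPM + 1) of 9.81 to 11.2 in knockouts and of 11.3, 5.35 and 10.8 in control replicates 1, 2 and 3. The defining markers of adipose tissue were thus low in the library labelled control replicate 2. Across the 15928 genes tested, control replicate 2 was the highest or the lowest of the 6 libraries for 72.3%, and for 43 of the 49 members tested (87.8%). Fold changes and counts that move most without it are also given without it. For Pdcd1, knockouts had 19, 19 and 5 counts and controls had 13, 0 and 0, and counts per gene do not show whether the deleted part was read.

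Enough reads for a test were found for 49 of the 58 genes. Fold changes are those of edgeR, as log2 of knockout over control, and levels are CPM, the read count per gene scaled to library size with TMM factors. Of the 49, 23 (46.9%) were higher and 26 lower in knockouts, beside 48.0% higher of all 15928 genes tested. Their median log2 fold change was -0.04, beside -0.03 over those genes. Their median absolute log2 fold change was 0.45, the same as over all genes. With edgeR's quasi-likelihood test, 0 of the 49 passed an adjusted p of 0.05, against 0.0% of all genes, and the smallest adjusted p was 0.560. At an unadjusted p under 0.05 there were 5 members (10.2%), 3 higher and 2 lower, beside 8.65% of all genes, 4.38% higher and 4.27% lower. An absolute log2 fold change of at least 1 was reached by 10 members (20.4%), beside 24.4% of all genes. DESeq2 called 4 members, with Glipr1, Tph2 and Lyz2 higher and Syt1 lower in knockouts, against 3.37% of 15580 genes (1.77% higher and 1.6% lower). Limma-voom called 0 members.

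Higher and lower members were interspersed along the chromosome. Of 48 pairs of neighbouring tested members, 21 pairs (43.8%) had the same sign of fold change. For all tested rows of the same stretch, the other named and unnamed transcripts included, it was 21 of 58 pairs (36.2%). The rest of chromosome 10 had 55.9% of 712 pairs with the same sign, and all genes had 54.5% of 15890 pairs. Neighbouring fold changes had a Pearson r of -0.05 over the 48 member pairs and of 0.21 over all pairs, as a description across genes that share the same libraries. In chromosomal order the 49 signs changed often enough to form 28 runs, and the longest run held 4 genes.

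**Figure D1:**
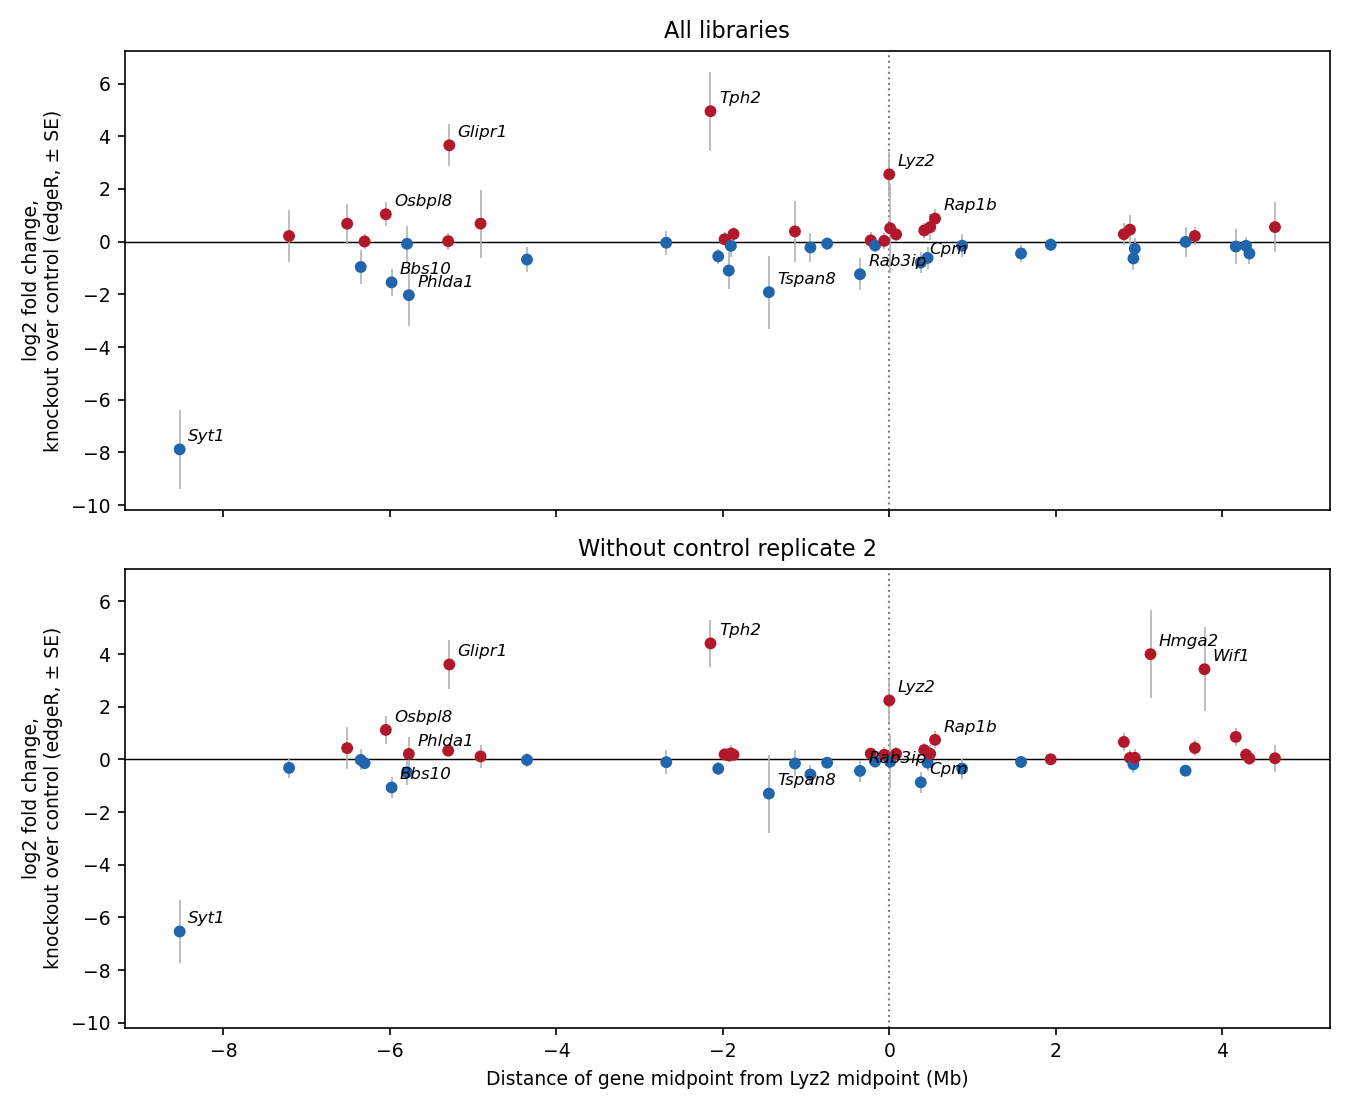
log2 fold change, knockout over control, of each tested member against the distance of its midpoint from that of Lyz2 in Mb, with the edgeR standard error as a bar, for all libraries (top) and without control replicate 2 (bottom). Red points are higher and blue points lower in knockouts. Both colours occur on both sides of Lyz2, and Syt1, at -7.89 with all libraries, lies 8.53 Mb away. In the bottom panel the 6 members at the high end, from Lemd3 to Srgap1, are all red.

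Members near Lyz2 and members far from it both lay on either side of 0. Within 1 Mb of Lyz2 on either side lay 14 tested members besides Lyz2, of which 7 were higher and 7 lower in knockouts, with 0.35 as the median absolute log2 fold change. Farther than 1 Mb lay 34, of which 15 were higher and 19 lower, with a median absolute log2 fold change of 0.45. The members at the far low end, over 4 Mb away, spread most widely, from -7.89 to 3.66, with 7 of 13 higher. Absolute fold change and distance had a Spearman rho of 0.17 and a Pearson r of 0.35 over 48 members, given as a description across genes that share libraries. Among the members the largest fold changes stood 2.15 Mb (Tph2), 5.29 Mb (Glipr1) and 8.53 Mb (Syt1) from the insertion.

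Without control replicate 2 the balance of signs was different, and 12 of the 49 members had the opposite sign. Of 51 members then tested, 29 (56.9%) were higher and 22 lower in knockouts, beside 47.1% higher of all genes, with 0.06 as the median log2 fold change and a median absolute log2 fold change of 0.22, beside -0.04 and 0.37 over 16729 genes. An absolute log2 fold change of at least 1 was then reached by 9 members (17.6%), beside 19.7% of all genes. With edgeR 0 members passed the adjusted p of 0.05, against 0.0% of all genes, and 5 (9.80%) had an unadjusted p under 0.05, beside 8.96%. DESeq2 called Glipr1 and Tph2 higher and Syt1 lower, against 2.81% of 16070 genes (2.12% higher and 0.691% lower). The 14 tested members more than 1 Mb beyond Lyz2 at higher coordinates were then 11 higher and 3 lower, with a median of 0.06, whereas with all libraries 4 of 12 were higher and 8 lower. On the other side, within 4 Mb of Lyz2, 7 of 15 were higher without control replicate 2 and 6 of 15 with it. Neighbouring members then had the same sign in 25 of 50 pairs, beside 54.2% over all genes. The longest run held 6 genes, from Lemd3 to Srgap1 at the high end, all higher in knockouts, by 0.04 (Xpot) to 3.43 (Wif1).

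Groups without any overlap were found for 9 of the 49 tested members (18.4%), beside 15.2% of all genes. Every knockout library was above every control library for 5 of the 49 members (Glipr1, Tph2, Zfc3h1, Lyz2 and Rap1b), 10.2% beside 9.54% of all genes. Every knockout library was below every control library for 4 members (Syt1, Bbs10, Tbc1d15 and Cpm), 8.16% beside 5.61% of all genes. Without control replicate 2 groups did not overlap for 15 of 51 members (29.4%, beside 25.5% of all genes). The members above were then 10 (19.6%, beside 13.6% of all genes), with Krr1, Cct2, Helb, Lemd3 and Rassf3 added. The members below were then 5 (9.80%, beside 11.9%), with Msrb3 added.

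**Figure D2:**
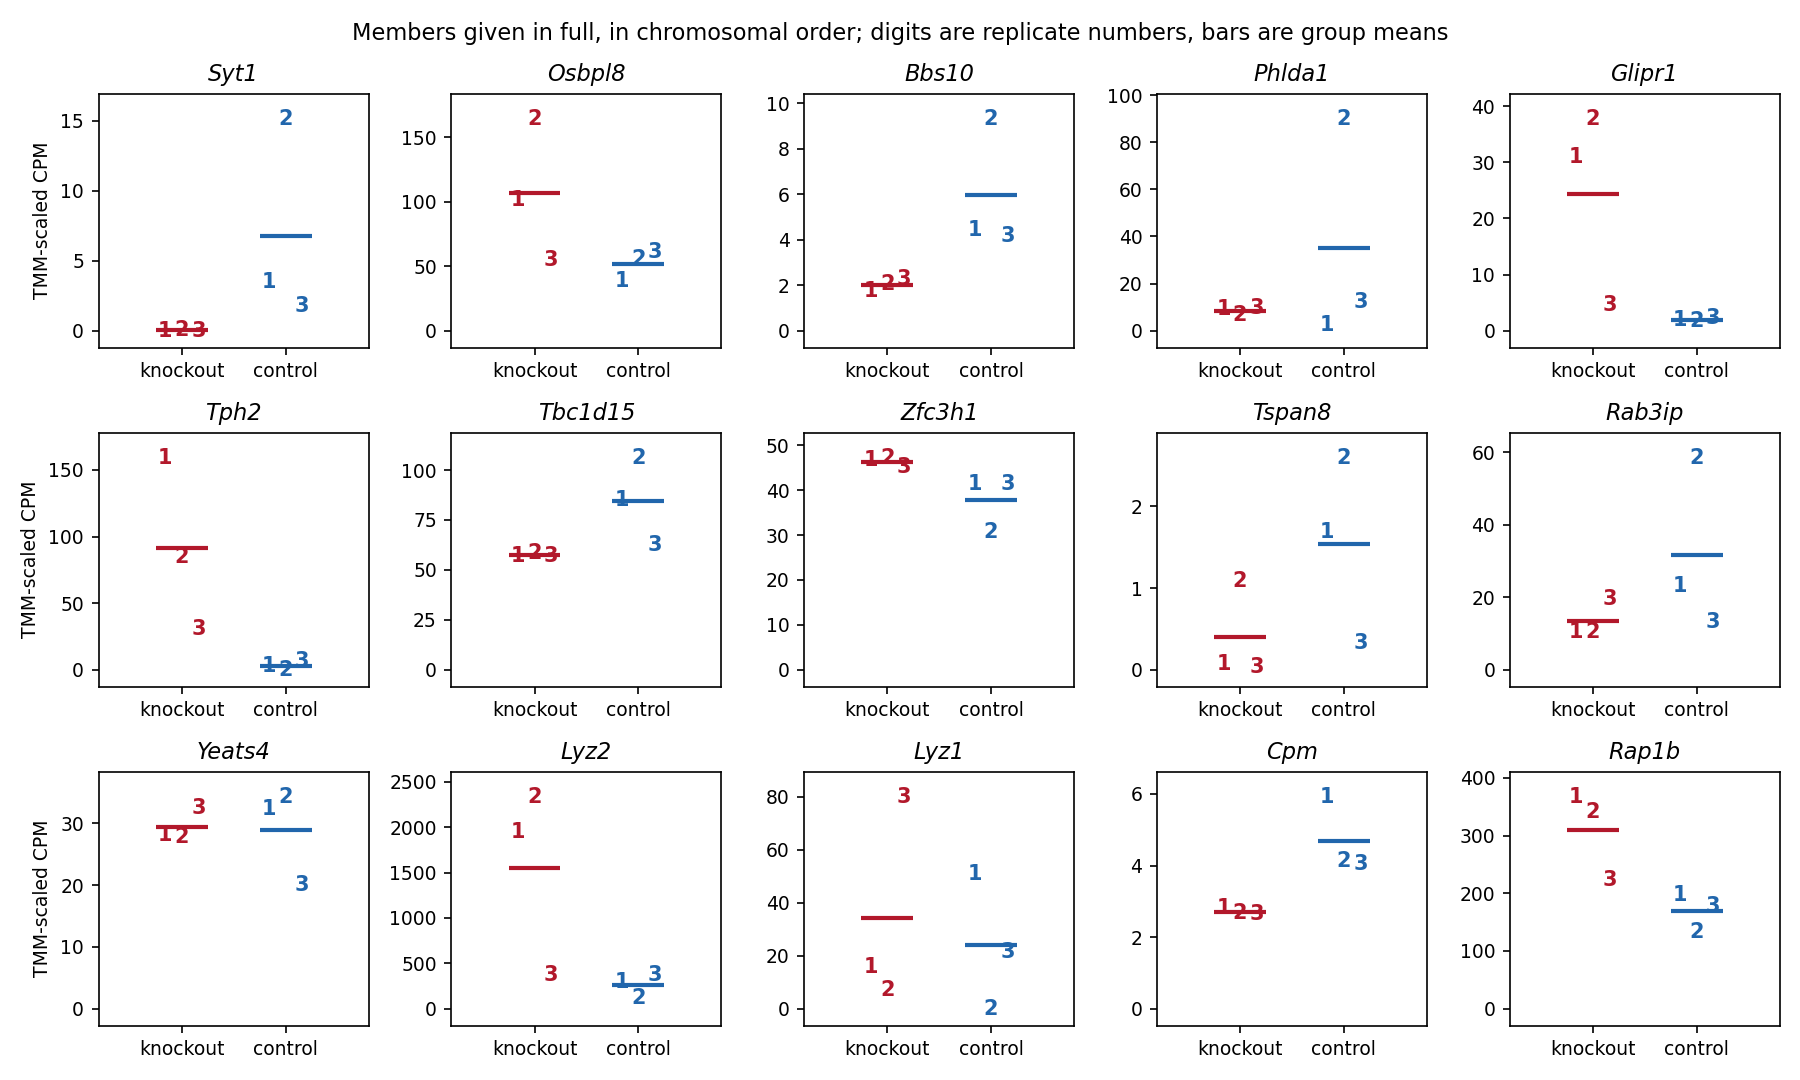
TMM-scaled CPM of the 15 members given in full, in chromosomal order, with knockout libraries left and control libraries right in each panel. Digits are replicate numbers and bars are group means. Syt1 is near 0 in the knockouts, and control replicate 2 is the highest library for Syt1, Bbs10, Phlda1, Tbc1d15, Tspan8, Rab3ip and Yeats4.

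Lyz2 was the member with the highest FPKM in all 6 libraries. It had 1945, 2334 and 376 CPM in knockouts, against 299, 123 and 369 CPM in controls. Knockout replicates 1 and 2 were far above the rest, while knockout replicate 3 was just above control replicate 3, so that the groups were separated by a narrow margin. The means were 1552 ± 1036 CPM in knockouts and 264 ± 127 CPM in controls (SD, n = 3 each). The log2 fold change was 2.56 ± 0.85 (SE), with a DESeq2 adjusted p of 0.0390. Without control replicate 2 the log2 fold change was 2.24 and the DESeq2 adjusted p was 0.0545, so the call was lost.

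The other macrophage markers were higher in the same libraries. Of the 14 markers besides Lyz2, 13 had a higher level in knockouts, with 1.78 as their median log2 fold change (12 of 14, and 1.49, without control replicate 2). For 8 of the 14, every knockout was above every control, beside 9.54% of all genes. Against 3.37% of all genes, DESeq2 called 5 of these 14 markers, and edgeR called 0. Their summed level was 1139 to 3447 CPM in knockouts and 498.0 to 1128 CPM in controls, and none of the 14 was at 0 in any library. The log2(CPM + 1) level of Lyz2 exceeded the mean of these 14 genes by 3.73, 3.76 and 2.66 in knockouts and by 2.53, 2.61 and 3.11 in controls. Their part in the Lyz2 difference was not tested.

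Lyz1, the lysozyme of intestinal Paneth cells, lies 10.5 kb from Lyz2 and behaved otherwise. It had 15.8, 7.19 and 80.0 CPM in knockouts, against 51.0, 0 and 21.3 CPM in controls. The highest library was knockout replicate 3, the knockout with least Lyz2, and the groups overlapped. The log2 fold change was 0.51 ± 1.69, and -0.09 without control replicate 2. Lyz1 made up 0.807%, 0.307% and 17.5% of the reads of both genes in knockouts, against 14.6%, 0% and 5.46% in controls. For the control library with 0 Lyz1 reads beside 1376 Lyz2 reads, a count of 0 allows a share of up to 0.218%, by counting error only. The annotated transcripts of the pair were 92.0% identical, so the reads of one could be counted for the other, and their split is uncertain.

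**Figure D3:**
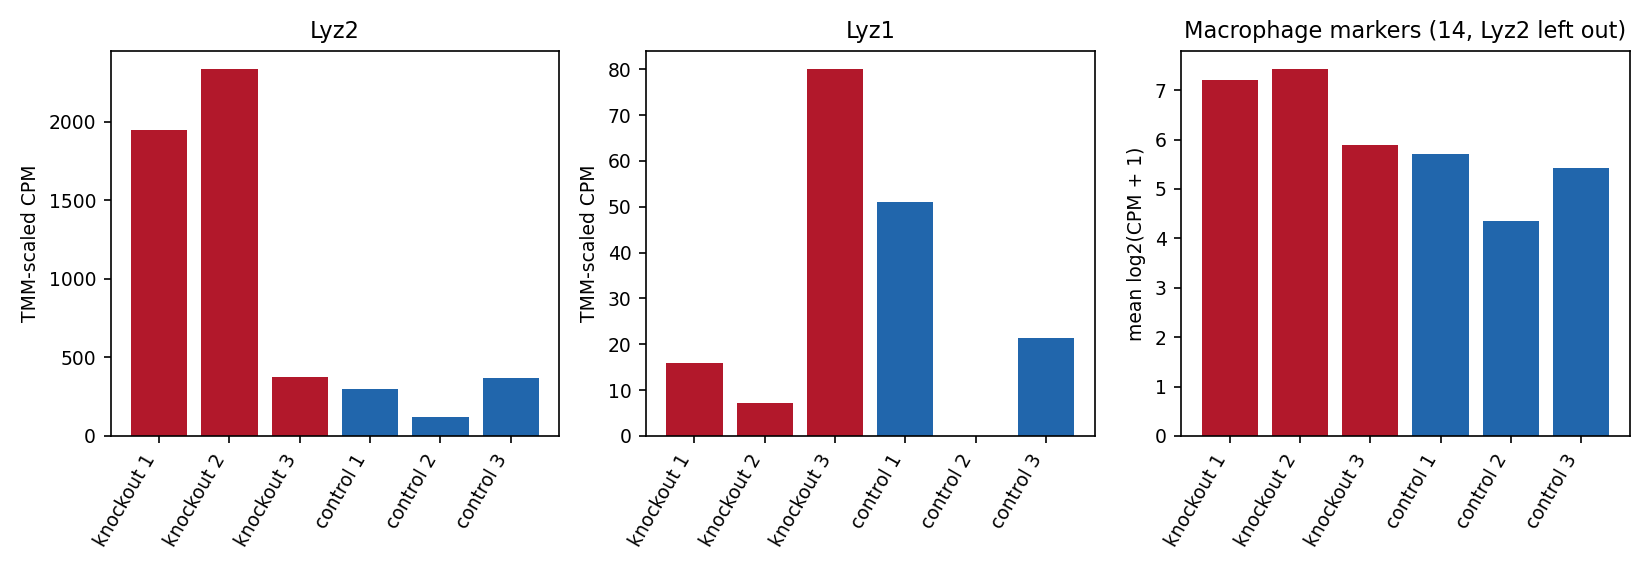
Lyz2 and Lyz1 in TMM-scaled CPM (left and middle) and the mean log2(CPM + 1) of the 14 macrophage markers other than Lyz2 (right), as 1 bar per library with knockouts in red and controls in blue. Lyz2 reaches 2334 CPM in knockout replicate 2, against 123 to 369 CPM in controls. Lyz1 is highest, at 80.0 CPM, in knockout replicate 3.

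Among genes of nerve and synapse, Syt1, at the far low end of the stretch, had the largest fold change of all members. Syt1 encodes synaptotagmin 1, the calcium sensor that triggers fusion of synaptic vesicles. It had 0, 2 and 0 counts in knockouts, against 93, 169 and 48 counts in controls, or 3.48, 15.1 and 1.76 CPM in controls. Every control was well above the floor of 3 counts and every knockout was below it. The fitted log2 fold change was -7.89 ± 1.51, and between -10.38 and -6.53 when each library was left out in turn, with a DESeq2 adjusted p of 8.66e-05, and of 0.000448 without control replicate 2. A ratio of the summed reads is the better guide at such counts. Scaled for library size, knockouts held 0.00495 of the control level (95% interval 0.000597 to 0.0180, counting error only), and 0.00902 (0.00108 to 0.0332) of the level in control replicates 1 and 3.

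The tested genes that work with Syt1 gave no such pattern. Of 22 synaptic vesicle partners 14 could be tested, of which 8 were higher and 6 lower in knockouts, with 0.11 as the median log2 fold change and no call by edgeR or DESeq2. The median was -0.46 without control replicate 2, with 6 of 15 higher. The members with the smallest p were the vesicle gene Syn1 at 1.66, Unc13a at 0.71 and Syt11 at 0.66, none of which passed the test. Partners with too few reads to be tested were highest in control replicate 1 and at 0 in control replicate 2, apart from Syt9. Rims1 had 1, 0 and 0 counts in knockouts, against 32, 0 and 3 in controls. Cplx1 had 1, 0 and 3 against 36, 0 and 9, and Syt5 had 2, 1 and 0 against 31, 0 and 7. Syt9 had 3, 0 and 0 against 9, 12 and 2. Nerve and Schwann cell markers had summed levels of 14.1 to 18.5 CPM in knockouts and of 6.26 to 27.3 CPM in controls, with 4 of 6 tested genes higher in knockouts, or 3 of 6 without control replicate 2. Snap25, of nerve terminals, had 3, 1 and 0 counts in knockouts, against 145, 0 and 2 in controls. The sympathetic enzymes Th and Dbh had 0 counts in every knockout, and 5 and 12 counts in control replicate 1 with 0 in the other controls. Snap25 was thus at 0 counts in control replicate 2, the library with the most Syt1, and the part of nerve RNA in the Syt1 difference was not tested.

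Tph2 had the largest positive fold change of the members. It encodes the tryptophan hydroxylase that starts serotonin synthesis in neurons of the brain. It had 159, 84.4 and 30.7 CPM in knockouts, against 2.43, 0 and 6.27 CPM in controls. The lowest knockout was above the highest control. Means were 91.4 ± 64.5 CPM in knockouts and 2.90 ± 3.16 CPM in controls (SD, n = 3 each). The log2 fold change was 4.95 ± 1.5 (SE), with a DESeq2 adjusted p of 0.0143. Without control replicate 2 it was 4.41, with a DESeq2 adjusted p of 2.66e-06. Tbc1d15, the member next to it, was lower in knockouts, and Trhde, the next on the other side, differed by -0.04.

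The other tested genes of this group, the axon guidance genes Nav3 and Srgap1 and the potassium channel Kcnc2, had log2 fold changes of 0.21 to 0.69, and of -0.32 to 0.11 without control replicate 2. In all 3 the lowest library was control replicate 2, and the groups overlapped. Kcnmb4, a subunit of calcium-activated potassium channels, had 0, 0 and 1 count in knockouts, against 0, 0 and 2 in controls. Grip1, a scaffold of glutamate receptors, had 2, 0 and 0 counts in knockouts, against 0, 1 and 4 in controls. Caps2 encodes a calcyphosine, and its place in this group is doubtful. It had 5, 2 and 0 counts in knockouts, against 1, 0 and 10 in controls. These 3 had too few reads to be tested.

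Of the immune genes, Glipr1 stood out. It encodes a secreted or membrane-bound protein of the CAP family and is known as a p53 target. It had 30.9, 37.7 and 4.62 CPM in knockouts, against 1.87, 1.70 and 2.20 CPM in controls. Controls lay close together, and knockout replicate 3, the lowest knockout, was still above them all. Means were 24.4 ± 17.5 CPM in knockouts and 1.92 ± 0.254 CPM in controls (SD, n = 3 each). The log2 fold change was 3.66 ± 0.80, with DESeq2 adjusted p of 0.00179, and 3.61 and 0.00230 without control replicate 2. The order of the knockouts was that of Lyz2 and of the macrophage markers above, highest in replicate 2 and lowest in replicate 3, and the part of macrophage RNA in the difference was not tested. Krr1, which overlaps the end of Glipr1 on the opposite strand, had a log2 fold change of 0.02.

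The interferon gamma gene Ifng, a T and NK cell cytokine, had 3, 4 and 5 counts in knockouts and 0 in every control, too few for a test. Il22, a cytokine of innate lymphoid and T cells, was at 0 in all 6 libraries, and a count of 0 allows up to 3 counts per library. Lymphocyte and NK markers beside them had summed levels of 25.9 to 43.2 CPM in knockouts and of 11.9 to 12.3 CPM in controls. All 10 were higher in knockouts, with 1.28 as the median log2 fold change, or 0.86 without control replicate 2. Among them edgeR called 0 and DESeq2 called 2, or 3 without that library, beside 3.37% and 2.81% of all genes. Irak3, which dampens Toll-like receptor signalling in macrophages, had a log2 fold change of 0.46, and 0.06 without control replicate 2. Tbk1, the kinase that activates interferon genes, had -0.16, and 0.18 without control replicate 2, and both had overlapping groups. Of 22 tested genes listed for signalling from Toll-like receptors to TBK1, 13 were higher in knockouts, with a median of 0.23. Without control replicate 2, 16 were higher, with a median of 0.30. Neither edgeR nor DESeq2 called any. The genes with the smallest p were Tlr1, with a log2 fold change of 2.47, Tlr2 with 1.22 and Tlr7 with 1.45. Among the 9 lower genes of the list was Mavs, an adaptor of RIG-I-like rather than Toll-like receptors, named after its value was seen. Mavs had -0.96, and -0.11 without control replicate 2.

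The genes of growth, cell cycle and p53 were split in direction. Of 9 tested, with log2 fold changes from -2.03 to 0.68, 4 were higher in knockouts and the median log2 fold change was -0.15, and 7 of the same 9 were higher, with a median of 0.23, without control replicate 2. Mdm2, the ubiquitin ligase that degrades p53, lies 0.42 Mb from Lyz2. It had 63.0, 63.0 and 44.0 CPM in knockouts, against 42.8, 37.0 and 46.6 CPM in controls. Knockout replicate 3 lay within the range of the controls, and the log2 fold change was 0.43 ± 0.27. Of 20 genes listed as p53 targets, Mdm4 and the p53 gene Trp53 itself among them, 15 were higher in knockouts, with a median of 0.41. Without control replicate 2, however, 11 of 20 were higher, with a median of 0.43. Neither tool called any, though DESeq2 gave Perp no adjusted p with all libraries. Bax, which permeabilises mitochondria, had a log2 fold change of 0.70, Trp53inp1 of -0.86 and Perp of -6.48, the last with 3993 counts in control replicate 2 against 15 to 322 in the other libraries. Without that library Perp had -2.48.

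Phlda1, which encodes a pleckstrin homology-like domain protein, had 9.25, 6.59 and 9.70 CPM in knockouts, against 2.58, 89.9 and 12.3 CPM in controls. Control replicate 2 alone was far above the others, and the log2 fold change of -2.03 ± 1.16 was 0.21 without it. Yeats4, a reader of histone acylation and the nearest tested member before Lyz2, had 28.1, 27.8 and 32.4 CPM in knockouts, against 32.3, 34.3 and 19.98 CPM in controls. The groups overlapped, with a log2 fold change of 0.03 ± 0.30. The other tested members of this group, E2f7, Helb, Mdm1, Thap2, Dyrk2 and Rassf3 besides Mdm2, ranged from -0.45 (Dyrk2, a kinase of p53) to 0.68 (E2f7, a repressor of cell cycle genes). When control replicate 2 was left out they ranged from -0.35 (Mdm1) to 0.86 (Rassf3). Hmga2, a chromatin protein of growing cells, had 114, 292 and 3 counts in knockouts, against 9, 0 and 7 in controls. It passed the filter on low counts only without some of the libraries, and its log2 fold change was 4.00 ± 1.68 without control replicate 2, with overlapping groups.

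Receptors and surface proteins were mostly lower in knockouts, 5 of 6 tested with the full set and 6 of 7 when control replicate 2 was left out, and none was called. Cpm encodes carboxypeptidase M, a peptidase bound to the cell membrane. Its level was 2.81, 2.67 and 2.64 CPM in knockouts, against 5.92, 4.11 and 4.03 CPM in controls. The knockouts lay close together below all controls, with a log2 fold change of -0.79 ± 0.41. Tspan8, a tetraspanin of epithelia, had 0.065, 1.09 and 0.039 CPM in knockouts, against 1.69, 2.59 and 0.330 CPM in controls. The groups overlapped, and the log2 fold change was -1.92 ± 1.39. It was -4.73 without knockout replicate 2, the highest knockout, and -1.30 without control replicate 2.

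Ptprb, the phosphatase of vascular endothelium, had 133, 126 and 121 CPM in knockouts, against 123, 61.7 and 257 CPM in controls. Control replicates 2 and 3 were the lowest and the highest library. The log2 fold change was -0.22 ± 0.54, and it ran from -0.57 (without control replicate 2) to 0.46 when each library was left out in turn. Endothelial markers beside it were higher in knockouts for 7 of 9 genes, or for 0 of 9 when control replicate 2 was left out, with medians of 0.24 and -0.23, and edgeR and DESeq2 called none. Ptprr, Frs2 (the adaptor of fibroblast growth factor receptors) and Trhde (which degrades thyrotropin-releasing hormone) ranged from -0.15 to 0.39. With control replicate 2 left out they ranged from -0.15 to -0.08, and Ptprr, at 0.39 with all libraries, was then the lowest. The intestinal stem cell receptor Lgr5 had 0, 1 and 0 counts in knockouts, against 1, 66 and 7 counts in controls, too few for a test. Wif1, a secreted inhibitor of Wnt, had 92, 47 and 7 counts in knockouts, against 8, 0 and 0 in controls, and a log2 fold change of 3.43 ± 1.60 without control replicate 2. Knockout replicate 3 overlapped control replicate 1.

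In the group of membrane traffic, Rap1b, a small GTPase of integrin adhesion that lies 0.55 Mb from Lyz2, had 367, 340 and 223 CPM in knockouts, against 196, 133 and 177 CPM in controls. All knockouts were above all controls. The means were 310 ± 76.9 CPM in knockouts and 169 ± 32.2 CPM in controls (SD, n = 3 each), with a log2 fold change of 0.88 ± 0.38 that neither edgeR nor DESeq2 called (DESeq2 adjusted p of 0.230). Osbpl8, a lipid exchanger of the endoplasmic reticulum, had 101, 164 and 55.1 CPM in knockouts, against 38.7, 55.7 and 61.3 CPM in controls. Knockout replicate 3 lay within the range of the controls, and the log2 fold change was 1.04 ± 0.46, and 0.60 without knockout replicate 2. Rab3ip, an exchange factor for Rab8, had 10.4, 10.3 and 19.4 CPM in knockouts, against 23.1, 58.4 and 13.1 CPM in controls. The groups overlapped, with a log2 fold change of -1.24 ± 0.61, and -0.44 without control replicate 2.

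Tbc1d15, which switches off Rab7, had 56.9, 58.3 and 56.9 CPM in knockouts, against 84.9, 106 and 62.4 CPM in controls. The knockouts lay close together and below every control, with a log2 fold change of -0.56 ± 0.30, and -0.35 without control replicate 2. The other 5 tested members of the group ranged from -1.10 (Tmem19, with 233 CPM in control replicate 2 and 38.7 to 53.7 CPM elsewhere) to 0.09 (Rab21, an endosomal GTPase). Without control replicate 2 they ranged from -0.19 to 0.19, Tmbim4, Slc35e3 and the palmitoyltransferase Zdhhc17 being the others.

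The 12 genes of RNA, ribosome, protein folding and the nucleus, most of which every cell uses, were all tested. Of these, 6 were higher in knockouts and the median log2 fold change was -0.03, with 9 of the 12 higher and a median of 0.12 without control replicate 2. Bbs10, a chaperonin-like protein of cilium assembly, had 1.76, 2.03 and 2.29 CPM in knockouts, against 4.42, 9.30 and 4.14 CPM in controls. Every knockout was below every control, with a log2 fold change of -1.55 ± 0.50, and -1.07 without control replicate 2 (DESeq2 adjusted p of 0.0626 and 0.139). Osbpl8, the gene just before it on the chromosome, had the opposite sign. Zfc3h1, which leads RNA to the nuclear exosome, had 46.7, 47.2 and 45.2 CPM in knockouts, against 41.3, 30.8 and 41.5 CPM in controls. Knockouts were above all controls by a small margin, with a log2 fold change of 0.29 ± 0.25, and 0.17 without control replicate 2.

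The other 10 of that group ranged from -0.45 (Xpot, the tRNA exporter) to 0.55 (Nup107, of the nuclear pore). Nup107, 0.492 Mb from Lyz2, thus had the highest value of the group, and 0.22 without control replicate 2, when the 10 ranged from -0.49 (Nap1l1) to 0.43 (Lemd3). Values are given for the pair of them nearest to Lyz2. Cct2, a subunit of the cytosolic chaperonin 0.222 Mb away, had 161, 142 and 161 CPM in knockouts, against 141, 182 and 126 CPM in controls, and a log2 fold change of 0.05, or 0.22 without control replicate 2. Cpsf6, an RNA 3′ end factor 0.0825 Mb on the other side, had 51.5, 50.8 and 36.6 CPM in knockouts, against 37.2, 34.2 and 43.4 CPM in controls, and a log2 fold change of 0.27. Groups overlapped for both. The remaining tested members were the methionine sulfoxide reductase Msrb3, the muscle LIM protein Csrp2 and Atxn7l3b, with -0.01, -0.96 and -0.68. Leaving out control replicate 2 gave -0.43, -0.02 and -0.02, and for Msrb3 every knockout was then below every control. Myrfl had 1 count in each knockout and 0 in each control.

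The stretch held 199 other rows of the table, and 10 of them could be tested. Of these, 6 were higher and 4 lower in knockouts. Every knockout was above every control for 1 of the 10, beside 9.54% of all genes, and below for 1, beside 5.61%. The row above was the long noncoding RNA Gm4065, with 33, 18 and 14 counts in knockouts, against 0, 0 and 9 in controls, and a log2 fold change of 2.57 ± 1.35. The row below was BC048403, a protein-coding gene near the high end. It had 186, 234 and 140 counts in knockouts, against 239, 106 and 243 in controls, which after scaling put every knockout below every control, with a log2 fold change of -0.47 ± 0.34. The noncoding RNA Gm30262, named after its value was seen, had a log2 fold change of -6.40 ± 2.77, with 0, 12 and 0 counts in knockouts, against 0, 403 and 31 in controls, and -1.93 without control replicate 2.

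The same measures were taken elsewhere in the genome. Over the rest of chromosome 10, 48.4% of 713 tested genes were higher in knockouts, beside 46.9% of the members, with a median log2 fold change of -0.02. Groups were without overlap upward for 9.68% and downward for 5.19% of those genes. In a window of equal length around Pdcd1, where both groups carry the floxed allele, 29 of 69 tested genes were higher, the median was -0.26, and groups were without overlap for 4 upward and 1 downward. Neighbours in that window had the same sign in 40 of 68 pairs (58.8%). Medians of 5 Mb bins along chromosome 10 ran from -0.38 to 0.51, and the bins within the member stretch had -0.12, -0.04 and -0.01.

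**Figure D4:**
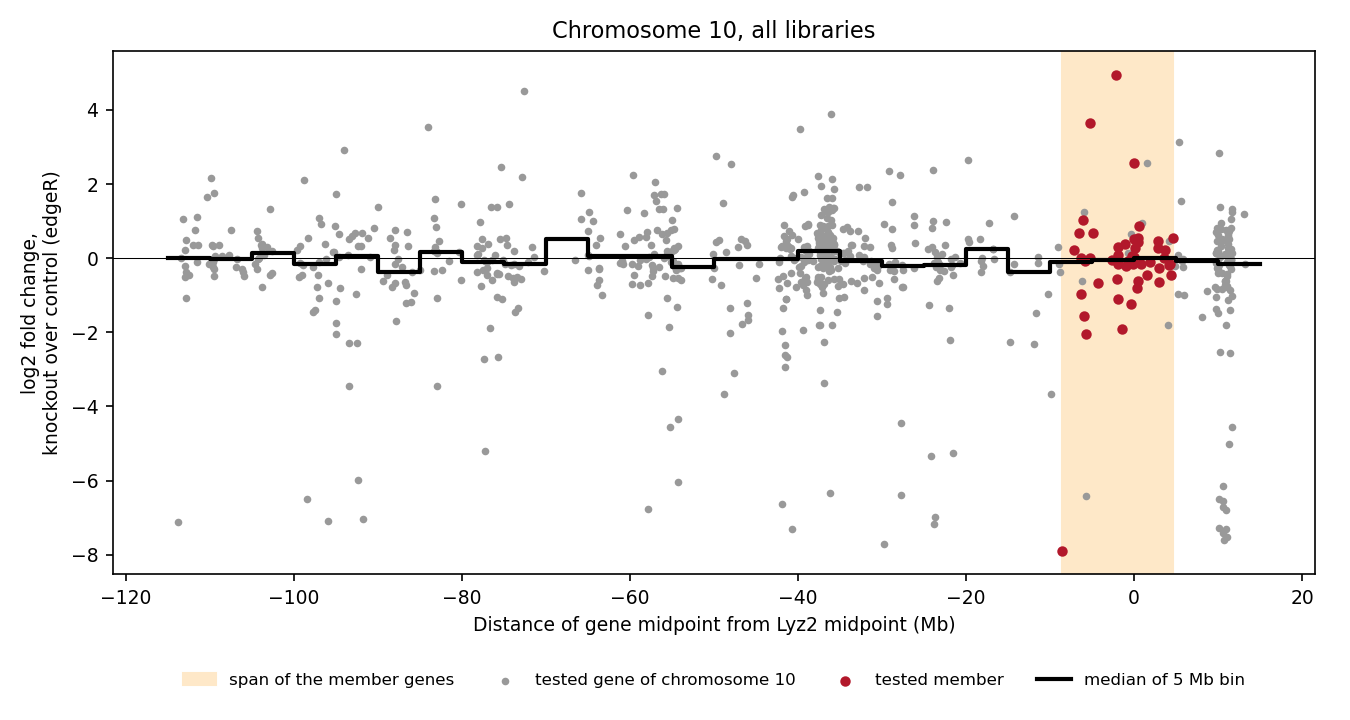
log2 fold change, knockout over control, of the tested genes of chromosome 10 against distance from Lyz2 in Mb, with all libraries, members in red on a shaded span and the median of each 5 Mb bin as a black line. The line stays near 0 across the span of the members, where the bins have medians of -0.12, -0.04 and -0.01.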

How the data were processed

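RNA of 6 libraries was sequenced, with mRNA purified from total RNA per the labels' protocols. The submitters' processing notes name fastp, featureCounts (1.5.0-p3), StringTie (1.3.3b) and HISAT2 (2.0.5), with mm10 as the build. Strandedness and annotation release were not given in the sources used here. Reads of overlapping genes, which 28 of the 58 members have, can therefore not be assigned with certainty. The authors deposited raw counts per gene and library, used for every test, and FPKM values, used for alternatives and for comparing Lyz2 with other genes. Coordinates and symbols came from the GENCODE annotation vM21 (GRCm38, which is mm10), with 54409 of 54532 rows matched.

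The whole table was tested with edgeR 4.0.16 under R 4.3.3 (robust quasi-likelihood fit), after filterByExpr, with TMM scaling and Benjamini-Hochberg adjustment at 0.05 over all genes tested. The TMM factor of control replicate 2 was 0.559, that of the rest 0.982 to 1.25. DESeq2 1.42.0 and limma 3.58.1 were alternatives, and the code was tested on simulated data. Each standard error was taken as the absolute log2 fold change divided by the square root of F. Control replicate 2 is the library titled HF_7690_eWAT.

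Members and gene lists (macrophage, lymphocyte and NK, adipocyte, hepatocyte, endothelial, mesothelial, nerve, fibroblast, epididymal, synaptic, p53, Toll-like receptor) were chosen with earlier results of these data known. Members given in full are the lysozymes, those whose groups did not overlap, the 5 largest fold changes in each direction, those near absent in 1 group, the nearest neighbours of Lyz2, and any called. Mdm2, Ptprb, Cct2, Cpsf6, Hmga2 and Wif1 were added after their values were seen. The interval of the Syt1 ratio is exact at 95%, while the limits given for a count of 0 are approximate upper limits. Figures were drawn from the same tables.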

Additional observations from a re-analysis of the deposited data

How the results depend on the processing

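Across 16 other settings (scaling, filters, tests, FPKM and left-out libraries), DESeq2 called 4 members, and 3 without control replicate 2, while the other settings called 0, leaving out each library included. Members with every knockout above every control numbered 5, and 5 to 13 when each library was left out in turn, 10 with DESeq2 without control replicate 2 and 22 without controls 2 and 3. Members with every knockout below numbered 4, and 4 to 11 with 1 library left out, and 12 without controls 2 and 3. The lone control is then assumed to vary like the knockouts. The fewer libraries a group has, the more often groups do not overlap. Over all genes, the share above rose from 9.54% to 13.6% without control replicate 2, and the share below from 5.61% to 11.9%. No share over all genes is given for the other left-out libraries or without controls 2 and 3. Whether the members exceeded all genes in those settings was therefore not tested. The median log2 fold change of the members, -0.04, ran from -0.070 to 0.058 with 1 library left out, and was 0.067 with limma-voom, 0.052 on log2(FPKM + 0.1), 0.047 with DESeq2 without control replicate 2 and 0.11 without controls 2 and 3. Same-sign neighbours of the stretch, 36.2%, ran from 34.9% to 43.5%.

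Of the 15 members given in full, 12 kept their sign in all 16 settings. Phlda1 turned positive without control replicate 2 (0.21, and 0.20 with DESeq2) and without controls 2 and 3 (1.73). Yeats4 turned negative without knockout replicate 3 (-0.043), without control replicate 3 (-0.17) and without controls 2 and 3 (-0.12). Lyz1 turned negative without knockout replicate 3 (-1.05), without control replicate 2 (-0.087, and -0.081 with DESeq2) and without controls 2 and 3 (-0.56). With each library left out in turn, Phlda1 ranged from -2.58 to 0.21, Yeats4 from -0.17 to 0.18 and Lyz1 from -1.05 to 1.68. The cause was not tested. No paired analysis was possible because the labels give no replicate numbers shared between the groups. The sample titles carry numbers whose meaning the sources used here do not state. Their first digits differ between knockout replicates 1 and 2 and control replicates 1 and 2, and are the same for replicate 3 of both groups. Whether these numbers relate to the group differences was not tested. The filter on low counts left out 9 members, and at 3 libraries a group the spread between libraries set the standard errors given.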

Other observations

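Markers of other cell types differed between the libraries in which the members were measured. Fibroblast and progenitor markers had 6 of 7 genes higher in knockouts, with 1.92 as the median log2 fold change, or 1.56 without control replicate 2. Among them edgeR called 0, and DESeq2 called 1 with all libraries and 0 without control replicate 2, beside 3.37% and 2.81% of all genes. Hepatocyte markers had a mean log2(CPM + 1) of 0.73, 5.67 and 2.18 in knockouts and of 0.62, 12.8 and 8.10 in controls, and all 12 were lower in knockouts. DESeq2 called 4 of them lower, beside 1.6% of all genes, and gave no adjusted p for Alb, Apoa1, Apoa2, Ttr and Cyp3a11. It called 0 without control replicate 2, with no adjusted p for Fgb. Mesothelial markers were higher in knockouts for 6 of 6 genes, with a median of 0.60, but for 4 of 6 without control replicate 2, and reached a summed level of 48.6 CPM in knockout replicate 2 against 3.50 to 18.9 CPM in the other libraries. Of the epididymal markers Crisp1 was tested, with a log2 fold change of -3.33 and 68, 70 and 5 counts in knockouts against 1033, 33 and 205 in controls. Without control replicate 2 Crisp1 had -3.81, and DESeq2 called it lower. Of the 3 epididymal markers then tested 2 were higher in knockouts, Lcn8 with 1.92 and Rnase10 with 1.56, both with few counts. Adipocyte markers were 5 of 10 higher, with a median of -0.01, and 0 of 10 higher without control replicate 2.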
